A study of Mus musculus with 23 samples.

Results

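The comparison described here is between the left ventricles of mice that breathed the vehicle aerosol of an e-cigarette from an age of 3 months and of mice that breathed it from an age of 3 weeks. It rests on the 7 libraries whose labels give that treatment, 4 with the 3-month start and 3 with the 3-week start, out of 23 in the series. All animals were FVB mice, an inbred strain, and exposure lasted 3 months, with sessions of 4 hours on 5 days of each week. Every library was made from total RNA of frozen left ventricle. Age at the start and age when tissue was taken move together in this design and cannot be told apart. The titles spell the vehicle differently at the 2 ages (YPGVG and APG) while the treatment label is the same, and whether its composition differed is not given in the labels. The other groups of the series, filtered air and vehicle with nicotine at the same 2 starting ages, are given only beside the vehicle values.

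Exposure lasted for months in both groups, so tissue taken after it came from hearts well past weaning. At the start of exposure, a mouse heart exposed from weaning is still growing. Around that age ventricular muscle cells have largely left the cell cycle, while endothelial cells, fibroblasts and other cells of the heart go on dividing for some weeks, and the muscle settles on fatty acids as its main fuel. Separately from maturation, heart tissue answers handling, hormones of stress and tissue damage within minutes to hours through immediate early genes, the transcription factors and signal inhibitors that cells switch on without making protein first. NF-kB target genes such as chemokines follow them. Interferon-stimulated genes form another program, switched on through the STAT2 and IRF9 proteins among others, which many tissues keep at a low resting level.

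Read totals were 12994778 to 15137780 counts in the 3-week vehicle libraries and 15479065 to 17364061 in the 3-month ones. Of 49315 genes in the table, 15500 passed a filter on low counts. Levels are CPM, read counts relative to library size after TMM scaling, and they are not corrected for gene length, so they are compared between libraries and not between genes. The cardiomyocyte markers had a mean of 12.54 to 12.72 log2 CPM over the 7 libraries. The male-linked gene Ddx3y was found in all 7. The 3-week libraries were less alike than the 3-month ones: the biological coefficient of variation, the spread between libraries beyond counting error, was 0.296 at 3 weeks and 0.106 at 3 months. Library 4 of the 3-week group correlated at 0.972 to 0.979 with the 3-month libraries across genes (Pearson r of log2 CPM), but at 0.944 and 0.962 with the other 3-week libraries 1 and 2. Libraries 1 and 2 also had more of their counts in genes that are not protein-coding, 2.57% and 2.18%, against 1.42% in library 4 and 1.5% to 1.67% in the 3-month libraries. Whether that share takes part in the differences below was not tested. By gene length, library 4 was the one apart. The rank correlation of exonic length with level, taken relative to the mean of all libraries, was 0.186 in library 4. It was -0.211 and -0.277 in libraries 1 and 2 and -0.244 to -0.111 in the 3-month libraries.

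The ventricles with the later start had higher levels of 16 of 25 immediate early genes, 14 of 26 NF-kB targets and cytokines and 18 of 32 fatty acid oxidation genes, and lower levels of 18 of 36 interferon-stimulated genes and 6 of 32 cell cycle genes. Of 30 splicing genes 11 were lower, a difference carried by 3-week libraries 1 and 2. The calls of all these lists were lost without 3-week library 1. Without libraries 1 and 2 together the median log2 fold change shrank from 0.45 to 0.15 for fatty acid oxidation genes. It went from -0.73 to -0.42 for interferon-stimulated genes and from -0.83 to -0.39 for cell cycle genes, but did not shrink for immediate early genes. In edgeR's quasi-likelihood test over all 23 libraries, with Benjamini-Hochberg adjustment, 1933 of 15500 genes passed an adjusted p of 0.05, which is 12.5%, and 5092 (32.9%) had an unadjusted p under 0.05. Of the 1933, 789 were higher with the 3-month start, 5.09% of genes tested, and 1144 were lower, 7.38%. The balance between the directions depended on the fit: 40.8% of these genes were higher, against 50% of those called by DESeq2 (1280 higher and 1281 lower) and 61.3% of those called in the 7 vehicle libraries alone (215 higher and 136 lower). The median log2 fold change of all genes tested was -0.025. A fold change beyond 1 on the log2 scale was found for 256 of the higher and 450 of the lower genes. The 4 libraries of the 3-month group lay above or below all 3 libraries of the 3-week group in 2747 genes, 17.7% of those tested (8.71% above and 9.01% below), and this held for 84.3% of the higher and 60.6% of the lower genes. Relative to the 3-month mean, the higher genes stood at a median of -0.98, -0.72 and -0.42 log2 units in 3-week libraries 1, 2 and 4, and the lower genes at 1.15, 0.88 and 0.31, so library 4 was nearest to the 3-month libraries in both directions. The number of genes past the threshold rests on library 1 of the 3-week group. Without it a single gene passed, Vmp1 (log2 fold change 0.858, adjusted p = 0.0316), with 2553 genes at an unadjusted p under 0.05, and many leading genes stood just outside at an adjusted p of 0.0543. Without library 2 of that group 655 genes passed, and without library 4, 6144. Leaving out 3-month library 1, 2 or 3 gave 571, 900 and again 900 genes. The 7 vehicle libraries fitted alone gave 351 genes, and a limma fit that lets each group have its own spread gave 0, with 2894 at an unadjusted p under 0.05. All 1933 genes kept their direction in each of these fits, but without 3-week libraries 1 and 2 together 1722 of them did. Because the fits reuse most of the libraries by which the genes were chosen, a kept direction is largely fixed in advance.

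**Figure D1:**
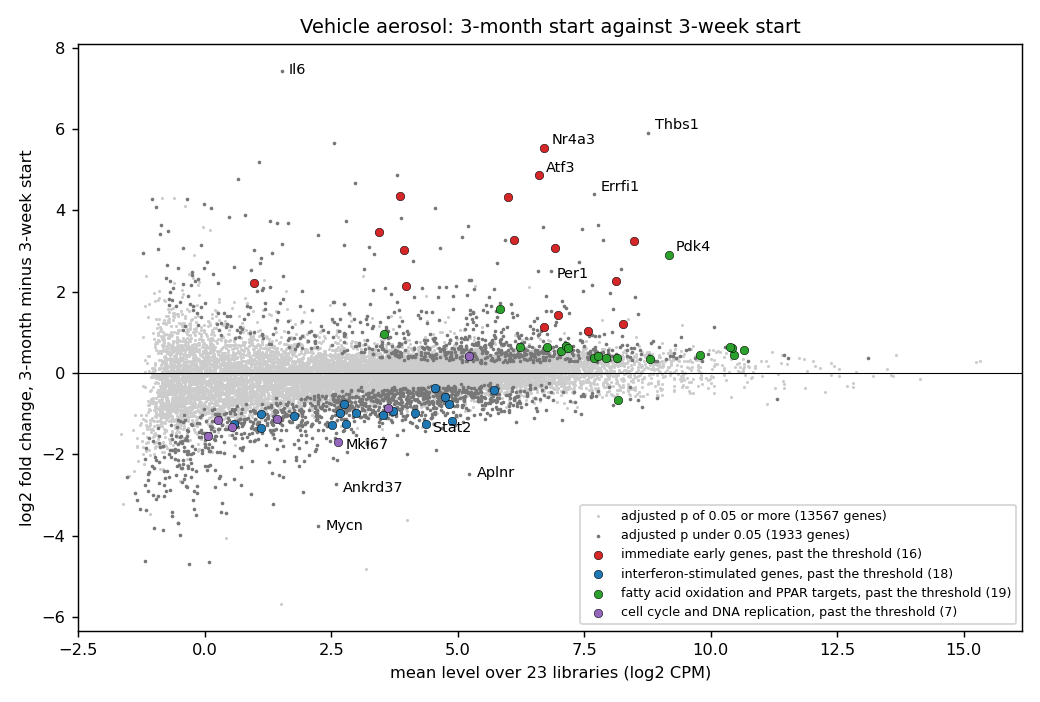
Each point is a gene, placed by its mean level over 23 libraries (log2 CPM, horizontal) and its log2 fold change between the 3-month and the 3-week start under vehicle (vertical, positive where the 3-month start is higher). Coloured points are genes past the threshold from 4 lists: the 16 immediate early genes lie above 0, the 18 interferon-stimulated genes below it, 18 of 19 fatty acid oxidation genes above it and 6 of 7 cell cycle genes below it.

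Among the 31 pathway lists the immediate early genes had the largest median difference and the largest share of members called. All 25 measured members had a positive log2 fold change, with a median of 2.12 against -0.025 over all genes, and 16 rose past the threshold (64%, where 5.09% of all genes did). For 19 of the 25 every 3-month library lay above every 3-week library, as was so for 8.71% of all genes. The mean level of the list was 3.88, 5.44 and 3.88 log2 CPM in 3-week libraries 1, 2 and 4 and 6.68, 6.90, 6.81 and 6.99 in 3-month libraries 1 to 4, so library 2 was the highest of the 3-week libraries and still lay below every 3-month one. Nr4a3, an orphan nuclear receptor induced by cyclic AMP and calcium signals, was at 1.32, 2.98 and 5.85 CPM in the 3-week libraries and at 207, 167, 161 and 109.9 in the 3-month libraries. Its log2 fold change was 5.55 ± 1.01 (SE; adjusted p = 0.00536). Atf3, a stress-induced transcription factor that binds cyclic AMP response elements, was at 4.48, 15.8 and 4.15 CPM against 152, 232, 278 and 285 (4.86 ± 0.82, adjusted p = 0.00447). The lowest 3-month library was thus far above the highest 3-week library for both genes. Fosl2, a partner of the AP-1 factor, was narrow within each group, at 17.6, 28.2 and 22.8 CPM and 188, 187, 193 and 201 (3.07 ± 0.52, adjusted p = 0.00447). Egr3, a zinc finger factor of the early growth response family, was at 0.441, 3.40 and 0.629 CPM and then at 16.6, 18.8, 28.2 and 58.6 (4.35 ± 0.78, adjusted p = 0.00495). Jund, which unlike its relatives is present in resting cells, differed less, at 97.9, 171 and 114 CPM against 259, 276, 254 and 252 (1.03 ± 0.18, adjusted p = 0.00477). The best known members did not all pass: Fos had a log2 fold change of 2.11 (adjusted p = 0.091), Egr1 of 1.32 (adjusted p = 0.15) and Jun of 0.91 (adjusted p = 0.10). Without 3-week library 1 the median of the list was 1.89 and 18 of its members had an unadjusted p under 0.05, though the calls were lost.

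The promoters of Nr4a3 and Atf3 are shown because both hold TGACG, the core of the cyclic AMP response element, searched on both strands and set in capitals. They are RefSeq windows of the GRCm38.p6 assembly, from 250 bases before to 50 after the annotated start, written 5′ to 3′ on the gene's strand: Nr4a3 at chr4:48045055-48045354 (+ strand) and Atf3 at chr1:191183284-191183583 (- strand). Of 20 windows that matched 14 of the 16 genes that rose, 13 (65%) held it, and so did 4 of 6 windows (66.7%) of measured members that did not pass. Over all 32851 windows the share was 20.8%.
Nr4a3: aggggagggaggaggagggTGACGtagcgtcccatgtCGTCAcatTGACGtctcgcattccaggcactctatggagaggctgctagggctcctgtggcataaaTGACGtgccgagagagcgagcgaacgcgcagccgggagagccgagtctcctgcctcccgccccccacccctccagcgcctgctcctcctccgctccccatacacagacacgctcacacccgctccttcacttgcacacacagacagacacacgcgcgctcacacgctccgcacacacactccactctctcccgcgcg
Atf3: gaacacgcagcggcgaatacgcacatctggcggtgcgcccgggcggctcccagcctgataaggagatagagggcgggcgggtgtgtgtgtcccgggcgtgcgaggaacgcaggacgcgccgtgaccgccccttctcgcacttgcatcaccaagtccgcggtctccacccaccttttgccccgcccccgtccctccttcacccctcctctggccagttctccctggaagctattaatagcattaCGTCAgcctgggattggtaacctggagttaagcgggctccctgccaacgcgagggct

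NF-kB targets and cytokines differed in the same direction. Of 26 measured members 14 rose (53.8%, against 5.09% of all genes) and 0 fell (19 at an unadjusted p under 0.05; DESeq2 placed 15 higher and 1 lower), with a median log2 fold change of 0.98. The mean level of the list was 2.68, 3.12 and 2.63 log2 CPM in the 3-week libraries and 4.65, 4.63, 4.33 and 4.00 in the 3-month libraries, without overlap. Cxcl1, a chemokine that draws neutrophils, was at 5.14, 11.9 and 4.78 CPM with the 3-week start and at 60, 116, 68.4 and 49.3 with the 3-month start (3.34 ± 0.57, adjusted p = 0.00447). Il1b, which codes for the cytokine interleukin-1 beta, was at 0.441, 0.902 and 0.189 and 7.25, 5.46, 5.36 and 8.33 CPM (3.69 ± 0.65, adjusted p = 0.00447). Both chemokine and cytokine were low in all 3 libraries of the earlier start. Ccl7, a chemokine for monocytes, stood at 1.91, 2.71 and 0.944 CPM against 18.3, 24.2, 12.8 and 7.83 (3.10 ± 0.59, adjusted p = 0.00573). Cxcl2, a close relative of Cxcl1, had 0, 6 and 4 reads in the 3-week libraries and 294, 248, 171 and 71 in the 3-month ones. Il6, the gene of interleukin-6, had 1 read in all 3 of the 3-week libraries together and 183, 82, 72 and 20 reads in the 3-month libraries (adjusted p = 0.0142); with a single read on one side its fold change is not given. Of the members that did not pass, Tnf had a log2 fold change of -1.13 (adjusted p = 0.051) and Nfkb1 one of 0.07 (adjusted p = 0.65). Without 3-week library 1 the median of the list was 0.86.

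Neutrophil markers were also higher with the later start. Of 13 markers 6 were measured, all 6 had positive values with a median of 3.91, and 3 rose (50%, against 5.09% of all genes). S100a8, a subunit of the calprotectin complex that fills neutrophils, had 3, 1 and 0 reads with the 3-week start and 70, 17, 62 and 30 reads with the 3-month start (adjusted p = 0.0156). S100a9, its partner, had 5, 5 and 1 reads against 94, 30, 74 and 30 (adjusted p = 0.0248), and Cxcr2, the receptor for Cxcl1 and Cxcl2, had 1, 0 and 0 reads against 14, 5, 11 and 4 (adjusted p = 0.0214). The counts are small, and neutrophil granule genes such as Mpo, Elane and Ngp were among the 7 markers under the filter. With so few reads in the 3-week vehicle libraries, these 3 genes could pass the filter only through other libraries, where they are higher. The share that rose and the median of the list are thus partly set by the filter. The part of these cells in the chemokine values was not tested. In bulk tissue, more cells of a type and more RNA per cell cannot be told apart.

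The windows of Cxcl1 and Cxcl2 lie on chromosome 5, at chr5:90890995-90891294 and chr5:90903649-90903948 (both + strand), and are shown because the 2 neighbouring genes carry the same stretch, in capitals, that matches the kB motif on either strand (2 overlapping matches each). Of 12 windows for 11 of the 14 genes that rose, 6 held the motif (50%), as did 6 of 11 windows (54.5%) of members that did not pass and 8.46% of all windows.
Cxcl1: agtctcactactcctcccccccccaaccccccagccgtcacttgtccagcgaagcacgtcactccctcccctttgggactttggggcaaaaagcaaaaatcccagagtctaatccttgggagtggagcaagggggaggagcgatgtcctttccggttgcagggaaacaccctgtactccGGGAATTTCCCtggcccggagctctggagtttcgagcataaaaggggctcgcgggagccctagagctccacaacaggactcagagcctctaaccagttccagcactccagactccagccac
Cxcl2: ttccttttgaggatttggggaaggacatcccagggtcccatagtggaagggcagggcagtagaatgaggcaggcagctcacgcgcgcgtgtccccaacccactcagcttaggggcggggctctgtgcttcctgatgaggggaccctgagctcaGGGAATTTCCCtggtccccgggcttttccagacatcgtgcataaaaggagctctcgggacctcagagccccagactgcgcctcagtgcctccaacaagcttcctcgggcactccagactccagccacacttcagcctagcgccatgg

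**Figure D2:**
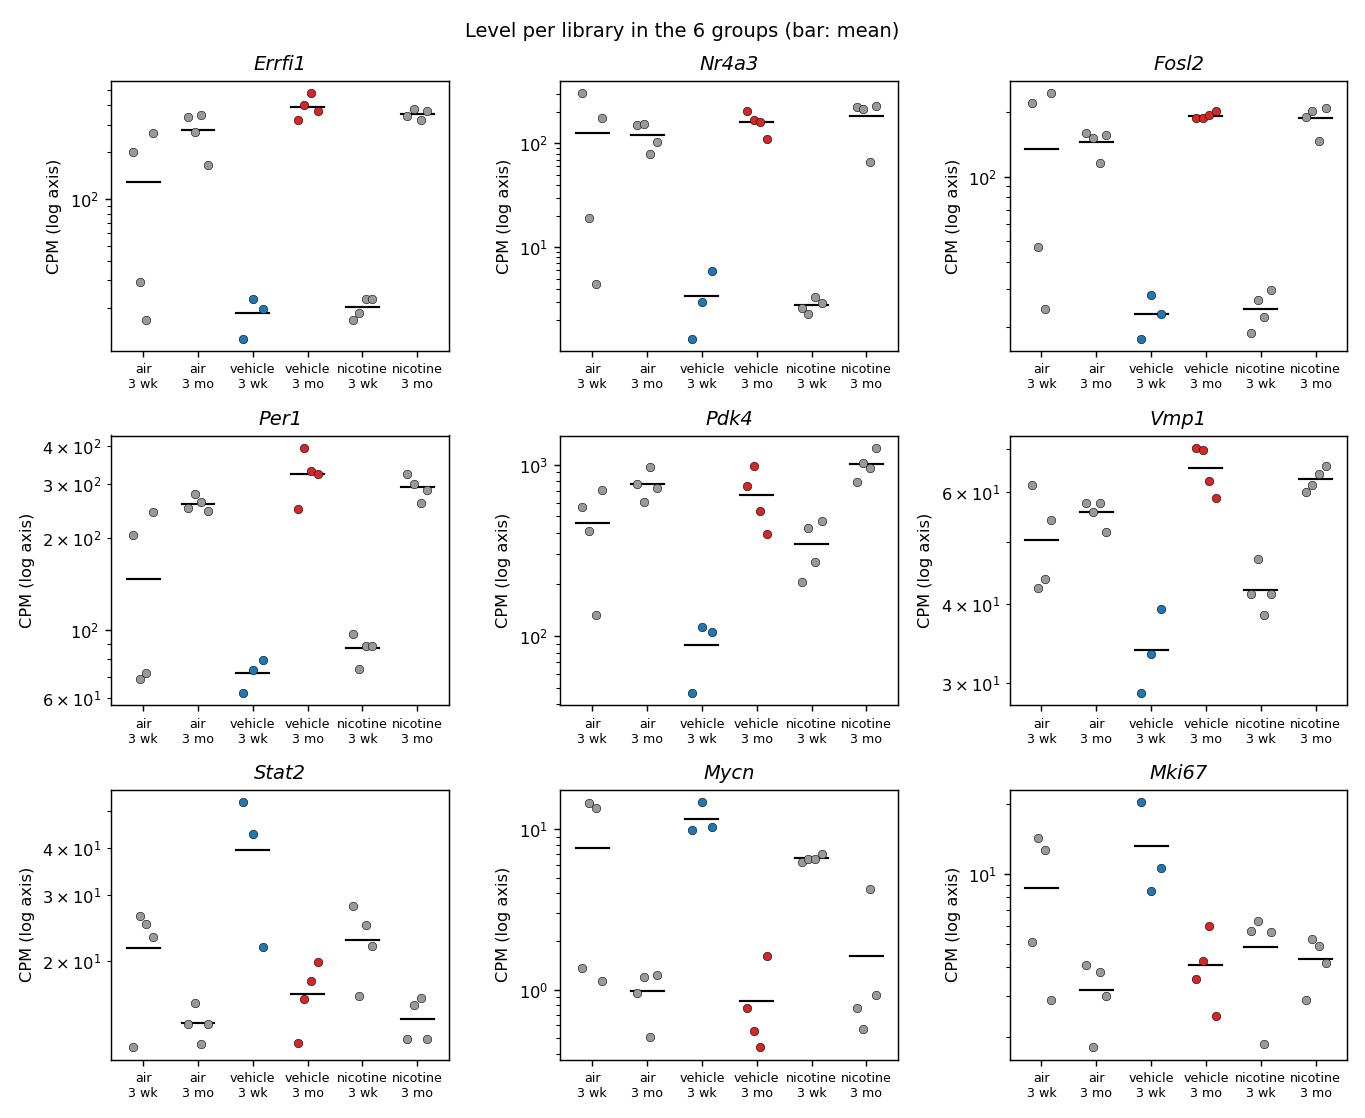
Level of 9 genes in each library (CPM, log axis) by treatment and start; each point is a library and each bar the mean of its group, with vehicle libraries in blue (3-week start) and red (3-month start). Errfi1, Nr4a3, Fosl2, Per1, Pdk4 and Vmp1 are higher in all 4 red points than in all 3 blue points, Stat2, Mycn and Mki67 are lower, and the 3-week air group is spread over the range of both.

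Genes that answer glucocorticoids, the adrenal hormones of stress and of the active phase of the day, rose in part. Of 23 measured members 10 rose (43.5%, against 5.09% of all genes) and 0 fell (16 at an unadjusted p under 0.05; DESeq2 placed 11 higher), with a median of 0.95, and without 3-week library 1 the calls were lost at a median of 0.99. Errfi1, a feedback inhibitor of the EGF receptor, was at 12.7, 23 and 19.7 CPM in the 3-week libraries and at 321, 398, 476 and 367 in the 3-month libraries (4.40 ± 0.67, adjusted p = 0.00372). Per1, a repressor of the circadian clock that also responds to hormone and immediate signals, was at 62.1, 74 and 79.8 CPM against 248, 394, 329.7 and 323 (2.17 ± 0.32, adjusted p = 0.00372). Sgk1, a kinase of salt and growth signalling, was at 41.6, 128 and 46.6 against 299, 316, 283 and 268 (2.02 ± 0.43, adjusted p = 0.00906). For each of these the groups did not overlap, as for 84.3% of all genes that rose, with Sgk1 the widest among the 3-week libraries. Cdkn1a, the inhibitor of cyclin-dependent kinases, was at 9.19, 12 and 6.42 CPM and at 111, 96.5, 87.6 and 62 (3.28 ± 0.78, adjusted p = 0.0145). Fkbp5 and Tsc22d3, widely used reporters of the glucocorticoid receptor, had log2 fold changes of 0.77 (adjusted p = 0.12) and 0.46 (adjusted p = 0.037). The list shares Dusp1 with the immediate early genes, Nfkbia with the NF-kB targets and Pdk4 with fatty acid oxidation. Among 22 clock genes, Per1, Bhlhe40 and Nfil3 rose (13.6%, against 5.09% of all genes) and Per3 and Tef fell (9.09%, near the 7.38% of all genes). The core factors Arntl and Clock had values of 0.15 (adjusted p = 0.79) and -0.08 (adjusted p = 0.79), and Dbp, an output gene with a wide daily swing, one of -0.32 (adjusted p = 0.33). The hour of tissue collection is not in the labels.

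The leading higher genes by p also included genes outside these lists. Vmp1, a membrane protein of the endoplasmic reticulum needed for autophagy, had the smallest p, at 29, 33.4 and 39.2 CPM against 70.3, 69.7, 62.3 and 58.7 (0.95 ± 0.12, adjusted p = 0.00207), and passed in 14 of 16 alternative fits. Abra, an actin-binding protein of striated muscle, was at 51.8, 78.5 and 60.3 CPM against 198, 218, 247 and 207 (1.77 ± 0.27, adjusted p = 0.00372). Cd83, found on activated antigen-presenting cells, was at 5.07, 3.75 and 4.91 and 19.4, 21, 18.9 and 18.7 (2.09 ± 0.31, adjusted p = 0.00372). The spread within each group was narrow for all 3. Thbs1, which codes for the matrix protein thrombospondin-1, was among the largest differences, at 1.98, 20.4 and 5.29 CPM with the 3-week start and at 719, 602, 496 and 411 with the 3-month start (5.92 ± 1.23, adjusted p = 0.00838). Spry2 and Cish, inhibitors of receptor kinase and of cytokine signalling, rose by 1.09 and 1.35 on the log2 scale, and Arid5a, which stabilises messenger RNA of Il6, by 2.28. Plekho2 rose by 1.66 and Cx3cl1, the membrane-bound chemokine fractalkine, by 0.86 (adjusted p = 0.00372 to 0.00447 for these 5 genes). Rgs1, a brake on G protein signalling in immune cells, was at 0.147, 0.208 and 0.0629 CPM against 4.95, 5.09, 6.24 and 4.89 (5.19 ± 0.91, adjusted p = 0.00447). Its 3-week levels rest on very few reads, so the size of that fold change is uncertain.

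**Figure D3:**
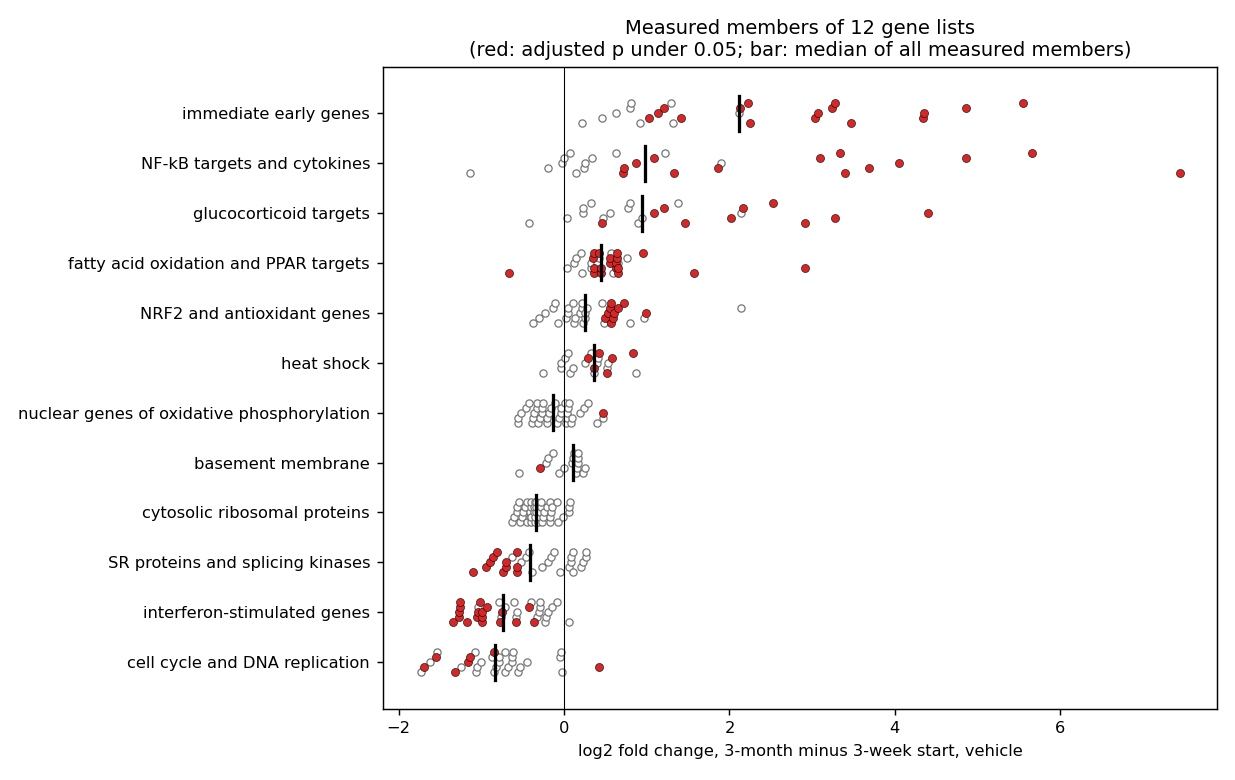
Log2 fold change (3-month minus 3-week start, horizontal) of every measured member of 12 gene lists; red points are past the threshold and the bar is the median of the list. The immediate early genes and NF-kB targets and cytokines spread furthest to the right, the fatty acid oxidation genes cluster near their median of 0.45, and the interferon-stimulated and cell cycle genes lie to the left.

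Fatty acid oxidation and PPAR target genes were higher by smaller and more uniform steps. Of 32 measured members 31 had positive values, 18 rose (56.2%, against 5.09% of all genes) and 1 fell (3.12%, against 7.38%), with a median of 0.45. Pdk4, the kinase that shuts pyruvate dehydrogenase and so spares glucose, stood out at 46.5, 113 and 106 CPM with the 3-week start and 754, 975, 533 and 392 with the 3-month start (2.91 ± 0.45, adjusted p = 0.00372). Slc25a20, the carnitine-acylcarnitine carrier of the mitochondrial membrane, was at 80.1, 81.3 and 138 CPM against 162, 167, 149 and 138 (0.63 ± 0.15, adjusted p = 0.0138). Plin5, a lipid droplet protein, was at 87, 90 and 111 against 179, 169.5, 132 and 122 (0.65 ± 0.14, adjusted p = 0.00838). Mlycd, which removes the malonyl-CoA that blocks fatty acid entry, was at 89.3, 95 and 108 against 158, 165, 122 and 125 (0.55 ± 0.12, adjusted p = 0.00916). Apart from Pdk4 these are steps of well under 1 log2 unit, and 3-week library 4 was the nearest to the 3-month group for all 3. The same holds for the list: its mean was 7.42, 7.50 and 7.88 log2 CPM in 3-week libraries 1, 2 and 4 and 7.98 to 8.38 in the 3-month libraries. The rate-controlling carnitine transferase of muscle, Cpt1b, rose by 0.65 (adjusted p = 0.036), the transporter Cd36 by 0.64 (adjusted p = 0.043), and the acyl-CoA dehydrogenases Acads, Acadl, Acadvl and Acadm by 0.37 to 0.63. The exception was Etfb, a carrier of electrons from these dehydrogenases, which fell by 0.67 (adjusted p = 0.049). The calls of this list depend on the fit more than those of the immediate early genes: the 7 libraries alone left 1 gene higher against 14 immediate early genes. Without 3-week libraries 1 and 2 together the median of the list was 0.15, while that of the immediate early genes was 2.63.

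Other genes of metabolism and protection were higher in smaller numbers. Over all genes tested, 5.09% were higher and 7.38% lower. Of 34 measured NRF2 and antioxidant genes 10 rose (29.4%) and 0 fell (19 at an unadjusted p under 0.05; DESeq2 placed 13 higher), among them catalase, Cat, at 114, 135 and 232 CPM against 274, 289, 246 and 254 (0.72 ± 0.16, adjusted p = 0.01), and Srxn1, which repairs peroxiredoxins, at 23.2, 25.7 and 23 against 38.9, 34.8, 37.7 and 33.1 (0.59 ± 0.13, adjusted p = 0.01). Srxn1 was tight within both groups, whereas for Cat library 4 of the 3-week group lay just under the 3-month range. Of 21 heat shock genes 6 rose (28.6%) and 0 fell (8 at an unadjusted p under 0.05; DESeq2 placed 8 higher), mostly small chaperones and co-chaperones of muscle such as Dnajb4 (0.84 ± 0.18, adjusted p = 0.00896) and Hspb6 (0.57 ± 0.14, adjusted p = 0.0156), while Hspa1a and Hspa1b, the inducible HSP70 genes, had values of 0.87 (adjusted p = 0.345) and 0.53 (adjusted p = 0.575). Of 16 measured genes of muscle atrophy and autophagy 4 rose (25%) and 0 fell (8 at an unadjusted p under 0.05; DESeq2 placed 6 higher), led by Bnip3, a mitophagy receptor (0.86 ± 0.18, adjusted p = 0.00797). Of 38 nuclear genes of oxidative phosphorylation, 1 rose, Uqcrc2 of complex III (0.47 ± 0.14, adjusted p = 0.0345), and the median was -0.14. Without 3-week library 4, 5 of the 38 rose and 20 fell, without library 1 the median was 0.05, and without libraries 1 and 2 it was 0.20. The 45 cytosolic ribosomal protein genes had a median of -0.34 with 0 past the threshold (21 at an unadjusted p under 0.05; DESeq2 placed 4 lower). The ribosomal median rests on single libraries: without 3-week library 4, 39 of the 45 fell at a median of -0.56, without library 1 the median was -0.15, and without libraries 1 and 2 it was 0.24.

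Markers of heart stress were divided. Rcan1, an inhibitor and target of calcineurin, was at 62.3, 62.2 and 80.5 CPM against 211, 194, 212 and 149.8 (1.49 ± 0.28, adjusted p = 0.00536). Xirp1, an actin-binding protein of the intercalated disc, was at 139, 129.8 and 241 against 475, 406, 498 and 493 (1.46 ± 0.29, adjusted p = 0.00697). Fhl1 and Ankrd23 rose as well, making 4 of 16 members (25%, against 5.09% of all genes). The classical markers did not pass. Nppb, B-type natriuretic peptide, was at 212, 519.7 and 266 CPM and 501, 491, 592 and 520.0 (0.66 ± 0.27, adjusted p = 0.101), with library 2 of the 3-week group inside the 3-month range. Nppa, the atrial natriuretic peptide, was at 95.3, 323 and 139.7 and 157, 132, 198 and 151 (-0.22 ± 0.35, adjusted p = 0.671), where that library was the highest of all 7. Acta1, skeletal actin, was at 298, 404 and 382 and 875, 690.4, 1065 and 627 (1.17 ± 0.40, adjusted p = 0.0576), just outside the threshold although the groups did not overlap. Myosin heavy chains Myh6 and Myh7 had values of 0.29 ± 0.13 (adjusted p = 0.142) and 0.35 ± 0.18 (adjusted p = 0.187). Of the genes of calcium cycling, Atp2a2, which pumps calcium back into its muscle store, was at 4222, 4998 and 12510.0 CPM against 11424, 8543, 9629 and 9588 (0.44 ± 0.33, adjusted p = 0.366); 3-week library 4 was above every 3-month library and libraries 1 and 2 below. Ryr2, the calcium release channel, had a value of -0.06 ± 0.35 (adjusted p = 0.923), and its sign turned in 3 of 16 alternative fits. Trdn, which anchors that channel complex, fell, from 1019, 719.9 and 334 CPM to 406, 448, 363 and 336 (-0.83 ± 0.22, adjusted p = 0.0213), with library 4 of the 3-week group just under the 3-month range.

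Interferon-stimulated genes were lower with the later start. Of 36 measured members 18 fell and 0 rose (24 at an unadjusted p under 0.05; DESeq2 placed 20 lower), 50% of those measured where 7.38% of all genes fell, and the median was -0.73. The mean level was 3.40, 3.45 and 2.98 log2 CPM in 3-week libraries 1, 2 and 4 against 2.30, 2.56, 2.76 and 2.81 in the 3-month libraries, so that every 3-week library was above every 3-month one. Stat2, a subunit of the factor through which type I interferon acts, was at 52.9, 43.5 and 21.8 CPM against 12.1, 15.8, 17.7 and 19.9 (-1.26 ± 0.26, adjusted p = 0.00736). Irf9, its DNA-binding partner, was at 23.2, 21.2 and 16 against 9.66, 10.1, 10.48 and 11.8 (-0.93 ± 0.20, adjusted p = 0.00927). Irf1, the factor of the interferon gamma response, was at 40.1, 59.7 and 35.4 against 23, 21.5, 16.7 and 18.7 (-1.17 ± 0.24, adjusted p = 0.00806). For all 3 regulators the groups did not overlap, as for 60.6% of all genes that fell. Oasl2, of the family of antiviral oligoadenylate synthetases, was at 11.5, 9.99 and 7.49 against 2.53, 3.44, 4.87 and 5.08 (-1.28 ± 0.27, adjusted p = 0.00893). Trim25, a ubiquitin ligase of the RNA sensor pathway, was among the lower genes of smallest p, at 66.1, 71.9 and 43.5 CPM against 34.6, 28.4, 23.1 and 25.4 (-1.12 ± 0.19, adjusted p = 0.00447), and Tmem173, the adaptor STING of DNA sensing, was at 10.1, 11.4 and 6.99 against 4.95, 4.73, 4.74 and 5.45 (-0.93 ± 0.17, adjusted p = 0.00495). Some of the most used markers of the response did not pass, Isg15 with a value of -0.58 (adjusted p = 0.22) and Ifit2 with -0.19 (adjusted p = 0.49). Of 23 genes of MHC class I and II, Psmb8 of the immunoproteasome fell (-0.86 ± 0.22, adjusted p = 0.0185), and the median was -0.16. Without 3-week library 1 the median of the interferon-stimulated genes was -0.58, with 19 at an unadjusted p under 0.05 and the calls lost; without library 4, 24 fell.

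The windows of Stat2 at chr10:128270248-128270547 (+ strand) and Oas1a at chr5:120907476-120907775 (- strand) are shown with the core of the interferon-stimulated response element, which is GAAA written 2 times with 2 bases of any kind between, on either strand, in capitals; Oas1a, an oligoadenylate synthetase, fell by 1.26 on the log2 scale (adjusted p = 0.015). Of 17 windows for 13 of the 18 genes that fell, 8 held the core (47.1%), as did 8 of 16 windows (50%) of members that did not pass and 3.44% of all windows. The core was therefore common in the list whether or not a gene passed.
Stat2: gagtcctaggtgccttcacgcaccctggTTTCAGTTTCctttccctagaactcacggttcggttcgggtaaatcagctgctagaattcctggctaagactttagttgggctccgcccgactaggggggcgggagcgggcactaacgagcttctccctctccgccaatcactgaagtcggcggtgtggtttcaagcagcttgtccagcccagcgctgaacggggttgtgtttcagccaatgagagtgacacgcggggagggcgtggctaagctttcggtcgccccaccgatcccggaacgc
Oas1a: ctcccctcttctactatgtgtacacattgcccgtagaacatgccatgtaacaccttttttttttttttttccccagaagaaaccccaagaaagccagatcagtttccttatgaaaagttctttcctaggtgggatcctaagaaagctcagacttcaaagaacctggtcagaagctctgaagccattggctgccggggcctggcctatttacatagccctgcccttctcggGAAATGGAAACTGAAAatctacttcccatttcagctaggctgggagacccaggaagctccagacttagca

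Some cell cycle genes were lower with the later start. Of 32 measured members 31 had negative values with a median of -0.83, 6 fell (18.8%, against 7.38% of all genes) and 1 rose (3.12%, against 5.09%); 24 had an unadjusted p under 0.05. The mean level was 2.08, 1.92 and 1.54 log2 CPM in the 3-week libraries and 0.95, 1.14, 1.32 and 0.87 in the 3-month libraries. Mki67, the Ki-67 protein of dividing cells, was at 20.4, 8.46 and 10.6 CPM against 3.54, 4.24, 5.99 and 2.44 (-1.69 ± 0.45, adjusted p = 0.0216). Mcm7, a subunit of the replicative helicase, was at 22.2, 16.4 and 13.5 against 9.25, 9.27, 10.2 and 9.77 (-0.85 ± 0.22, adjusted p = 0.0214), and Nusap1, a spindle protein, at 2.65, 2.43 and 2.01 against 0.412, 0.982, 1.19 and 1.19 (-1.32 ± 0.40, adjusted p = 0.0365). These levels are low in all 7 libraries. The groups did not overlap for any of these 3 genes, as for 60.6% of all genes that fell. Pcna, the replication clamp that also serves DNA repair, was the member that rose (0.42 ± 0.13, adjusted p = 0.0348). Without 3-week library 4, 19 members fell, and without library 1 the median was -0.62 and the calls were lost.

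Of 20 measured juvenile growth and imprinted genes 2 fell, Mycn and Sox4 (10%, where 7.38% of all genes did), and the median was -0.33. Mycn, a Myc family factor of growing embryonic and juvenile heart, was at 9.85, 14.8 and 10.3 CPM with the 3-week start and at 0.766, 0.552, 0.437 and 1.63 with the 3-month start (-3.77 ± 0.73, adjusted p = 0.00617). Other large falls were in genes chosen by fold that are not on that list. Rassf10, of a family of Ras-association proteins, was at 3.82, 5.06 and 4.91 against 0.648, 0.675, 0.811 and 1.19 (-2.46 ± 0.54, adjusted p = 0.00934). Ankrd37, a target of hypoxia-inducible factor, was at 14.5, 16.4 and 9.57 against 1, 1.60, 2.56 and 2.88 (-2.74 ± 0.67, adjusted p = 0.0152). In Mycn, Rassf10 and Ankrd37 all 3 libraries of the 3-week group, library 4 included, lay well above every 3-month library. Aplnr, the apelin receptor of sprouting endothelium, was at 72.2, 80.3 and 90.2 against 5.83, 9.21, 13 and 30 (-2.48 ± 0.79, adjusted p = 0.0454), with a wide spread among the 3-month libraries. Sox4, the other member of the growth list that fell, a factor of progenitor cells, was at 47.6, 25.8 and 29.3 against 10.4, 11.8, 10.9 and 17.5 (-1.44 ± 0.33, adjusted p = 0.0112). The growth factor Igf2 and its neighbour H19, which are shut off after birth in most tissues, had values of -0.29 ± 0.18 (adjusted p = 0.264) and -0.06 ± 0.35 (adjusted p = 0.92). Of the fibrillar collagens, Col3a1 was at 148, 216 and 202 CPM against 90.1, 94.8, 111 and 129 (-0.83 ± 0.29, adjusted p = 0.0634), separate but outside the threshold, and Col1a1 had a value of -0.11 ± 0.20 (adjusted p = 0.719). The chains of basement membrane collagen, Col4a1 and Col4a2, had values of 0.17 ± 0.15 (adjusted p = 0.414) and 0.16 ± 0.14 (adjusted p = 0.448). Xist, the RNA that silences an X chromosome in female cells, fell on the strength of library 1: it was at 14.6, 4.09 and 1.64 CPM in the 3-week libraries and at 0.825, 2.03, 1.68 and 1.32 in the 3-month libraries (-2.20 ± 0.56, adjusted p = 0.0182). Hoxb4, a homeobox factor, was at 14, 10.54 and 3.65 against 1.53, 1.66, 2.06 and 3.26 (-2.14 ± 0.47, adjusted p = 0.00958).

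Genes of splicing control were lower in part (36.7% of members, against 7.38% of all genes), and here library 4 of the 3-week group went with the 3-month libraries. Of 30 measured SR proteins and splicing kinases 11 fell and 0 rose (19 at an unadjusted p under 0.05; DESeq2 placed 14 lower and 2 higher), with a median of -0.41. The mean level of the list was 7.32 and 7.16 log2 CPM in 3-week libraries 1 and 2, but 6.63 in library 4, just below the 6.65 to 6.87 of the 3-month libraries. Clk1, a kinase that phosphorylates SR proteins, was at 283, 192 and 115 CPM against 96.6, 126, 91.7 and 107 (-0.90 ± 0.22, adjusted p = 0.0169). Luc7l3, a factor of 5′ splice site choice, was at 256, 190.4 and 91.4 against 88.4, 87.2, 84.8 and 73.1 (-1.10 ± 0.23, adjusted p = 0.00806). Rbm5 was at 217, 154 and 94.8 against 80.7, 94.4, 77.5 and 88.9 (-0.86 ± 0.19, adjusted p = 0.00948). The SR proteins themselves differed little: Srsf1, Srsf2 and Srsf3 had values of 0.06, 0.11 and -0.05. Without libraries 1 and 2 together the median of the list was 0.11.

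The lower genes of smallest p were otherwise of mixed function. Amt, of the glycine cleavage system, was at 16.8, 11.2 and 6.23 CPM against 3.48, 4.36, 4.49 and 4.07 (-1.47 ± 0.24, adjusted p = 0.00447). Maf, a transcription factor, was at 50.7, 42.5 and 27.3 against 14.1, 18, 21.5 and 22.6 (-1.07 ± 0.20, adjusted p = 0.0057), and Cbx6, a Polycomb protein, at 104, 88.7 and 59.2 against 35.5, 40.8, 42.7 and 45.5 (-1.03 ± 0.19, adjusted p = 0.00536). In all 3 the 3-week values ran from library 1 down to library 4, which was the nearest to the 3-month group. Cyb561d1 was tight, at 17, 15.5 and 15.4 against 9.37, 10.1, 10.54 and 10.1 (-0.67 ± 0.11, adjusted p = 0.00447). Ccnt2, a cyclin of transcription elongation, fell by 0.90 on the log2 scale, Phkg1, the catalytic subunit of muscle phosphorylase kinase, by 1.12, Zfp160 by 1.06, Nudt5, a hydrolase of ADP-sugars, by 0.76, Baz1b, of chromatin remodelling, by 0.66 and Ttc4, a co-chaperone, by 0.49 (adjusted p = 0.00477 to 0.0057). Genes that are not protein-coding were 13.1% of those tested, 8.75% of the higher and 17.7% of the lower genes.

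Markers of the other cells of the heart gave few calls. None of the 13 endothelial, 13 fibroblast, 14 macrophage and 14 smooth muscle and pericyte markers passed (0, 2, 2 and 2 at an unadjusted p under 0.05; DESeq2 placed 0, 1, 1 and 1 past the threshold), and their medians were 0.12, -0.21, 0.05 and -0.14. None of 7 measured blood and erythroid markers passed either (0 at an unadjusted p under 0.05; DESeq2 placed 0), and their mean level was 5.58 log2 CPM in 3-week library 1 against 3.73 and 4.05 in libraries 2 and 4. Atrial markers were uneven: their mean was 3.15, 4.77 and 2.58 log2 CPM in the 3-week libraries and 2.36 to 3.26 in the 3-month libraries. None of the 12 measured passed (6 at an unadjusted p under 0.05; DESeq2 placed 1 higher and 1 lower), and the atrial light chain Myl7 had a log2 fold change of -4.83 (adjusted p = 0.097) that rests on its levels in 3-week libraries 1 and 2. Of 2 T and NK cell, 5 skeletal muscle and 2 lung epithelium markers measured, 0 passed in edgeR's test or in DESeq2 (0, 1 and 0 at an unadjusted p under 0.05).

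**Figure D4:**
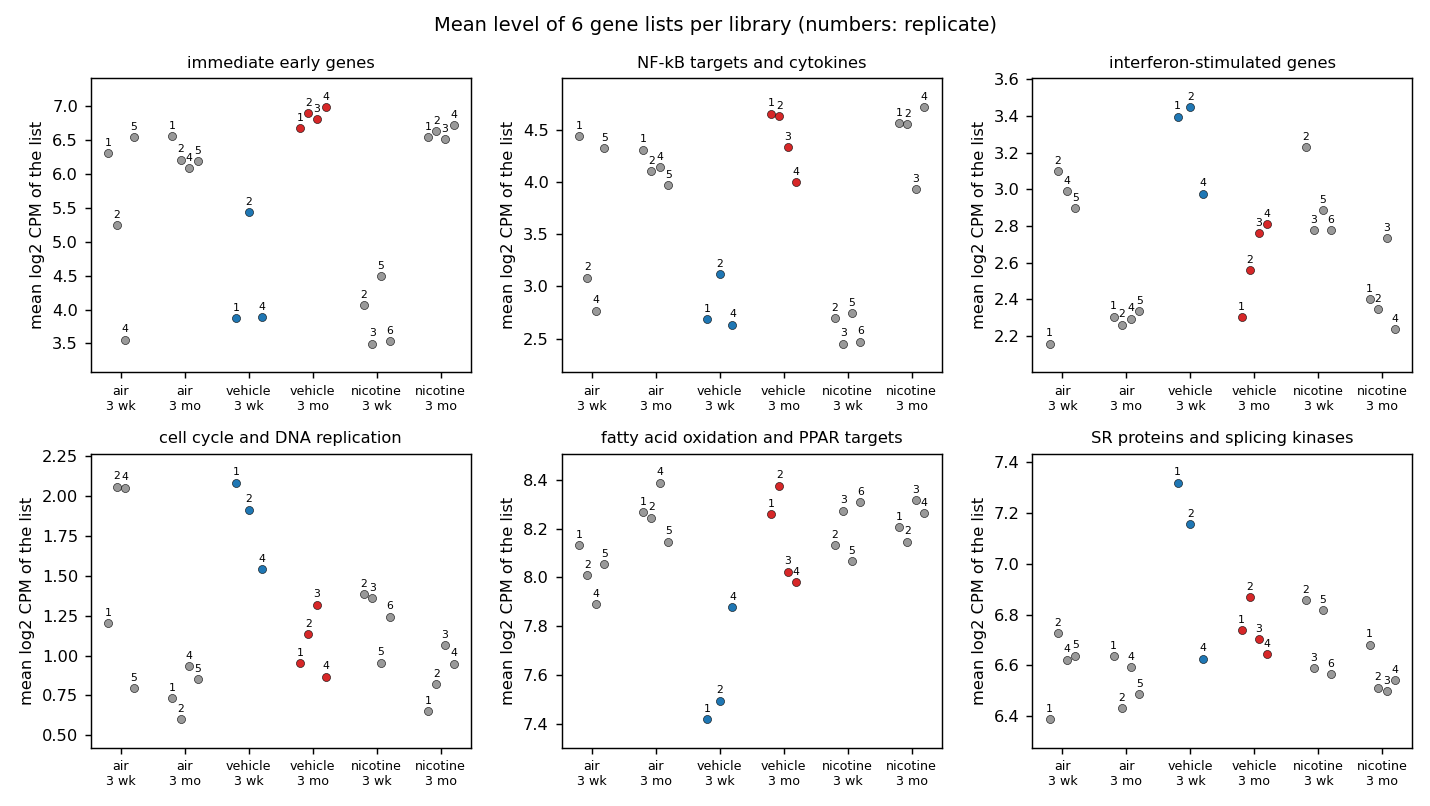
Mean level (log2 CPM) of 6 gene lists in each of the 23 libraries, with the replicate number beside each point; vehicle libraries are blue (3-week start) and red (3-month start). For the immediate early genes, NF-kB targets, interferon-stimulated and cell cycle genes the 3 blue points stand on one side of the 4 red ones, while for the SR proteins and splicing kinases blue point 4 (6.63) lies beside the red points.

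The same age contrast in the air and nicotine groups used other libraries. Under nicotine 1476 genes passed, 9.52%, of which 780 were higher (5.03%) and 696 lower (4.49%), and the 2 sets overlapped: 344 genes were higher in both, 43.6% of the genes higher under vehicle and 44.1% of those higher under nicotine, and 292 were lower in both, 25.5% and 42%, while 3 passed in opposite directions. The nicotine count was also sensitive to single libraries: it was 654 or 726 without 3-week nicotine library 2 or 5, and 873, 630 or 633 without 3-month nicotine library 1, 2 or 4. Of the genes higher under vehicle 94.4% had the same sign under nicotine, and of the lower genes 94.4%, where 77.5% of all genes did. The immediate early genes had a median of 2.49 under nicotine with 21 of 25 past the threshold, the NF-kB targets one of 1.15, the glucocorticoid targets 0.94, and the interferon-stimulated genes -0.50. For the fatty acid oxidation genes the counts and medians stand side by side, and the difference between them was not tested over the list. Under vehicle 18 rose with a median of 0.45, and under nicotine 1 rose with a median of 0.01. Under air 0 rose, with a median of 0.16. The list mean was 7.42 to 7.88 log2 CPM in 3-week vehicle, below 7.89 to 8.13 in 3-week air and 8.07 to 8.31 in 3-week nicotine. Errfi1 had a log2 fold change of 4.13 under nicotine (adjusted p = 0.000535), Per1 one of 1.74 (adjusted p = 0.000931) and Slc25a20 one of -0.01 (adjusted p = 0.971).

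Under air a single gene passed, 0.00645% of those tested. It was Apod, a lipocalin, with a log2 fold change of 1.11 (SE 0.178, adjusted p = 0.0426), and 1408 genes (9.08%) had an unadjusted p under 0.05; DESeq2 placed 42 past the threshold. The genes higher under vehicle had a median of 0.11 under air, and the lower genes one of -0.25, against 0.68 and -0.86 under vehicle. Because these genes were chosen by their vehicle values, smaller medians in other libraries are partly fixed by that choice. The 3-week air group was spread over the range of both ages: the immediate early genes had means of 6.30, 5.24, 3.56 and 6.54 log2 CPM in its libraries 1, 2, 4 and 5, beside 6.09 to 6.56 in the 3-month air libraries, and the cell cycle genes had 1.2, 2.06, 2.05 and 0.80 beside 0.60 to 0.93. Libraries 1 and 5 of 3-week air thus lay at or near the 3-month values in these lists. Without those 2 libraries 856 genes passed under air. They were picked for lying near the 3-month values, so a rise in the count is partly fixed by that choice. The cause of the position of libraries 1 and 5 was not tested. Mycn, for one, had a difference of -2.97 under air, with 3-week air levels of 1.36, 14.6, 13.6 and 1.14 CPM in libraries 1, 2, 4 and 5. Interferon-stimulated and cell cycle genes had medians of -0.55 and -0.84 under air, close to those under vehicle.

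A test of the difference between the age effects called no gene. Vehicle against air gave 0 of 15500 in edgeR's quasi-likelihood test (1861, or 12%, at an unadjusted p under 0.05; DESeq2 placed 81), and vehicle against nicotine gave 0 (1000, or 6.45%, at an unadjusted p under 0.05; DESeq2 placed 28). Both counts rest on single libraries: without 3-week vehicle library 4 they were 1350 and 280, and without 3-week air library 2 or 4 the first was 40 or 66. In edgeR's fit of the full data no gene is shown to differ with age under vehicle alone. The genes of smallest p in these tests were Otud1, Abra and Cish on the higher side and Upf2, Hmcn1 and Bcl11b on the lower side for vehicle against air (adjusted p = 0.136 to 0.198). For vehicle against nicotine they were Vwc2, Retsat and Mettl7a1, and Rnf213, Lama4 and Bcl2 (adjusted p = 0.234). Retsat, an enzyme of retinol metabolism and a target of PPAR factors, was at 42.3, 48 and 57.8 CPM against 86.7, 85.5, 73.4 and 73.7 under vehicle (0.69 ± 0.12, adjusted p = 0.00447) and had a value of -0.16 under nicotine (adjusted p = 0.349).

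**Figure D5:**
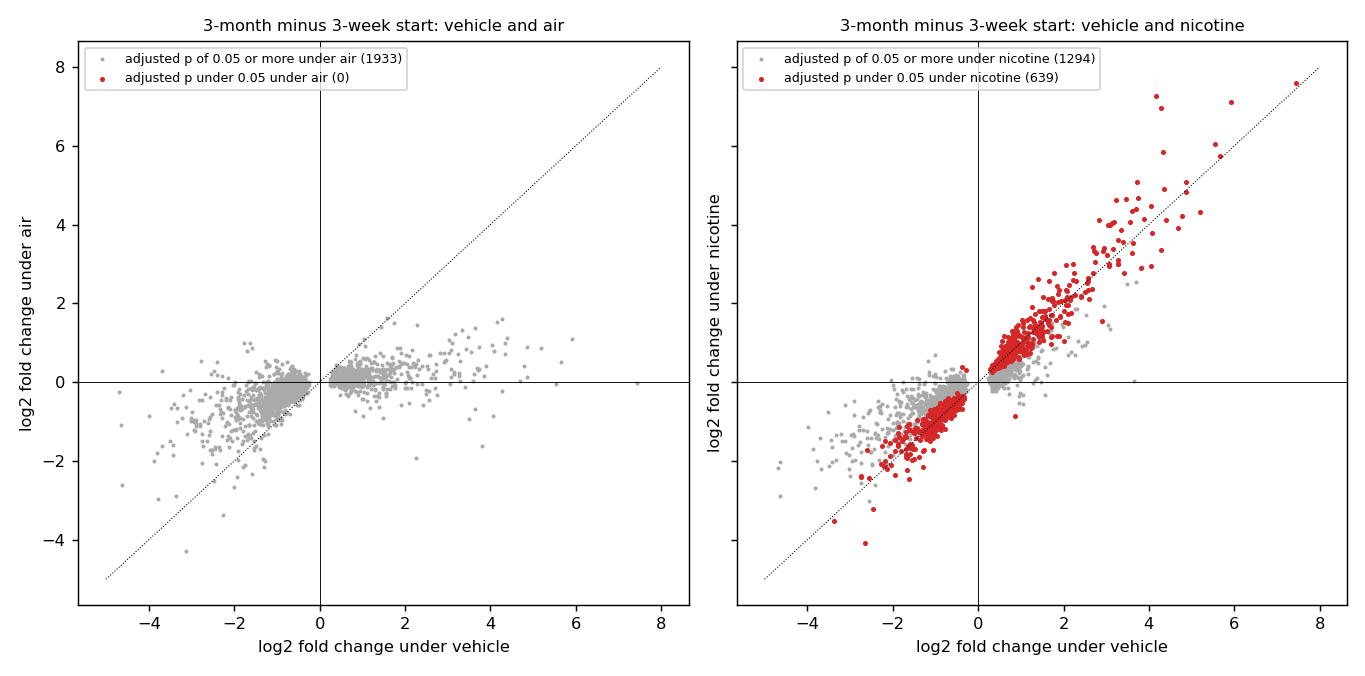
Log2 fold change (3-month minus 3-week start) of the 1933 genes that passed under vehicle, under vehicle (horizontal) and under air (left) or nicotine (right, vertical); red points also passed in the other setting and the dotted line marks equal values. The 639 red points of the right panel passed under nicotine too. Under nicotine the genes higher and lower under vehicle had medians of 0.46 and -0.51, nearer to 0 than the dotted line. Under air those medians were 0.11 and -0.25, and no point is red. Because the genes were chosen by their vehicle values, smaller medians in other libraries are partly fixed by that choice.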

How the data were processed

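Total RNA of left ventricle was sequenced in 23 libraries. The authors deposited raw read counts per gene, and per the submitters' processing notes DESeq2, STAR 2.5.2b, Trimmomatic 0.36, Subread 1.5.2 and featureCounts were used. Neither the build nor the annotation or strandedness of counting is stated in the sources used here, so overlapping and antisense genes cannot be separated. Symbols were matched by gene ID for 49056 of 49315 genes, from GENCODE vM21, and promoter windows come from RefSeq.

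Counts were filtered with filterByExpr (minimum count 10), scaled by TMM and fitted with edgeR 4.0.16 (robust quasi-likelihood, 6 groups, 17 residual degrees of freedom) in R 4.3.3, with limma 3.58.1 and DESeq2 1.42.0 as alternatives, and Benjamini-Hochberg adjustment over 15500 genes at 0.05. The procedure was tested on simulated data in which all groups had the same spread, unlike the vehicle groups (0.296 at 3 weeks and 0.106 at 3 months). The SE after each ± is the size of the log2 fold change divided by the square root of the quasi-likelihood F statistic. List levels are means of log2 CPM with a prior count of 2. Named genes are, of the genes called whose average log2 CPM over all libraries reached 1, the 12 of smallest p and the 6 of largest fold in each direction, then up to 4 of each list, 3 per side of each interaction where none passed, and a set of followed genes; other values named were chosen after they were seen, and a few genes the rule selects are not reported here. The genes, lists and comparison were chosen with earlier results of these data known.

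Totals were 12994778 to 17364061 counts in the 7 vehicle libraries. The labels do not say that libraries are separate animals, so p-values measure the spread between libraries, which may be technical. With 4 against 3 libraries the smallest two-sided exact permutation p for a single value is 0.0571. Labels carry nothing on batch, cage or collection day, so these could not be examined. None of the 9 pairs of vehicle libraries within a start age agreed within sampling noise.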

Additional observations from a re-analysis of the deposited data

Results flagged for a closer look

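Among 193 measures examined in the 4 libraries of the 3-month vehicle group, 6 had a library set apart from the other 3 by a larger share of the whole range than Dixon's 95% critical value, and chance alone gives about 1 in 20. Mettl7a1 was at 54.5 CPM in library 4, above 48.7 to 49.6 in the others. Rgs1 was at 6.24 CPM in library 3, above 4.89 to 5.09, and this leaves its distance from the 3-week libraries in place. The mean of the cytosolic ribosomal protein genes was 8.02 log2 CPM in library 2, above 7.84 to 7.87 in the others. The atrial markers had a mean of 3.27 log2 CPM in library 4, above 2.36 to 2.48. Library 1 was the low one for angiogenic endothelial genes, at 5.48 log2 CPM, and for endothelial markers, at 7.02 log2 CPM, below 7.20 to 7.23. The causes were not tested.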

How the results depend on the processing

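Of 1933 genes past the threshold under vehicle, 351 passed with the 7 libraries alone, 0 in limma with group weights (2894 at an unadjusted p under 0.05), 1132 without the filter on low counts, and 0 without 3-week libraries 1 and 2 together (1517 at an unadjusted p under 0.05). Leaving out 1 library gave 1 to 6144. Under air the 1 gene became 42 in DESeq2 and 0 with library sizes from protein-coding genes. It became 856 without 3-week air libraries 1 and 5, a pair picked for lying near the 3-month values. With 1 library left out 0 to 68 genes passed under air. Under nicotine the 1476 became 915 without the filter and 630 to 1778 with 1 library left out. The tests of a difference in age effect, with 0 genes each, gave 81 and 28 in DESeq2, and 0 to 1350 (air) and 0 to 280 (nicotine) with 1 library left out. The causes were not tested.

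A replicate block gave 958, 0 and 756 genes under vehicle, air and nicotine. Same-numbered vehicle libraries had correlated deviations of -0.211, 0.0439 and -0.0604, and pairs with different numbers ranged from -0.215 to 0.265. With so few pairs, whether same-numbered libraries share more than a number could not be told.

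Signs turned without 3-week libraries 1 and 2 for Atp2a2 (-0.37), Col4a1 (-0.21), Col4a2 (-0.24), Itpr2 (0.0574), Mettl7a1 (-0.0944), Myh6 (-0.0679), Nppa (0.18), Trdn (0.20) and Uqcrc2 (-0.0065), without 3-week library 2 for Col1a1 (0.0137) and Nppa (0.44), and for Ryr2 in limma with group weights (0.0257), with a length offset (0.0077) and without 3-week library 4 (0.33). With 1 library left out Col1a1 ranged from -0.2736 to 0.0137, Nppa from -0.5122 to 0.4389 and Ryr2 from -0.3083 to 0.3279. The 3 libraries of the 3-week group limit the precision of every value.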

Other observations

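Some other lists held members that passed under vehicle. Of 37 measured collagen and matrix genes 2 were higher and 1 was lower (5.41% and 2.7%, against 5.09% and 7.38% of all genes), with a median log2 fold change of -0.05. Of 19 measured receptors for adrenergic, cholinergic and angiotensin signals 3 were higher and 2 were lower (15.8% and 10.5%), with a median of 0.32; Agtr1a, the angiotensin II receptor, was at 19.6, 13.5 and 26.2 CPM with the 3-week start and at 23.7, 23.1, 52.3 and 53.8 with the 3-month start (0.95, adjusted p = 0.0265), so the groups overlapped. Of 19 measured p53 targets 3 were higher and 2 were lower, the same shares of 15.8% and 10.5%. Trib3, a pseudokinase of the integrated stress response, was lower, at 8.31, 10.3 and 5.22 CPM against 1.71, 3.31, 2.49 and 2.32 (-1.69, adjusted p = 0.0191). Of 7 measured B and plasma cell markers 2 were higher and 1 was lower: Ighm, the heavy chain of IgM, was at 12.6, 9.92 and 8.50 CPM against 4.54, 4.91, 5.99 and 6.77 (-0.90, adjusted p = 0.038).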
